A study of Mus musculus with 35 samples.

Results

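Pancreatic acinar enzyme transcripts were followed through sorted myeloid cells, bulk tumor and spleen of mice with orthotopic pancreatic cancer. The genes are Ctrb1, Prss2, Try4, Cela2a, Cela3b, Cpa1, Cpb1, Cel, Pnlip and Clps. They were picked by symbol and matched to the count table through their Ensembl identifiers, which found 10 of 10 among the 53379 genes in the table. They had been proposed because their levels were seen to differ between tumor fractions and spleen in these libraries, so the levels by organ and fraction are a description and carry no test. Treatment was not a contrast of that choice, and the treatment effect was tested. Earlier results of these data were known when the genes and tests were chosen.

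Acinar cells make up most of the exocrine pancreas. They pack digestive enzymes into zymogen granules and release them into the ducts, where proteases, elastases and carboxypeptidases travel as inactive precursors and lipases travel with their cofactors. In the healthy pancreas these messages are among the most abundant of any cell. Tumors of the kind studied here grow inside the pancreas, so acinar tissue lies beside them, and most of these enzymes are known chiefly as products of that tissue.

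The libraries came from 8 female C57BL/6 mice in which T110299 cells had been injected into the pancreas. T110299 is a single tumor cell line from a mouse model of pancreatic cancer that carries Ptf1a-Cre, a Cre driven by the promoter of an acinar transcription factor. Host mice were wild type, and every group carried the same tumor line. Of the mice, 4 received 50 µg poly(I:C) complexed with in vivo-jetPEI into the vein on days 18 and 20, and 4 received glucose and are called untreated, as in the labels. From tumor and spleen, CD11b+ cells were enriched on magnetic beads and sorted into PMN-MDSC (Ly6C low, Ly6G+) and M-MDSC (Ly6C high, Ly6G-). MDSC are myeloid-derived suppressor cells, and the PMN and M forms resemble neutrophils and monocytes. Tumors were dissociated into single cells for sorting, whereas bulk tumor, taken from untreated mice only, was lysed directly. The groups held 4 libraries each, apart from 3 of spleen PMN-MDSC from treated mice and 3 usable ones of tumor M-MDSC from treated mice, and 34 of 35 libraries were used. Libraries are numbered here within a group in the order of the table, and the column names do not tie a library to a mouse, so libraries were not paired.

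Depth ran from 793070 counts in an untreated tumor M-MDSC library to 8886115 in a bulk tumor library. The acinar enzymes were rare at this depth, so counts are given beside levels, and intervals and limits cover counting error only. Some sorted libraries went against their gates. In untreated tumor PMN-MDSC, Ly6g was at 0 to 9.19 CPM and Csf1r, a gene of monocytes and macrophages, at 852 to 1190.6 CPM, while Ly6g stood at 34.5 CPM or more in every spleen PMN-MDSC library. Ly6c2 was at 2.98 CPM in treated tumor M-MDSC library 2, against 443 and 622 CPM in the other 2 libraries of that group. Summed levels, percentages of bulk tumor and treatment effects that include this library are also given without it.

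Promoter sequences are shown for 4 of the genes, 2 proteases and 2 lipases, because the 10 genes share an expression program that in the acinar cell runs through short motifs near the start site. The motifs sought were the E-box CACCTG and the TC-box TTTCCC, whose paired form the acinar factor complex PTF1 binds, and the TATA box TATAAA. These were chosen with the expression values known. Each line holds the 150 bases before the RefSeq start, which can differ from the GENCODE start, on GRCm38.p6, 5′ to 3′ on the strand of the gene, with motif matches on either strand in capitals (GGGAAA and CAGGTG are the reverse-strand forms, and the 3 motifs do not overlap each other here).
Cel (chr2:28563404-28563553, minus strand): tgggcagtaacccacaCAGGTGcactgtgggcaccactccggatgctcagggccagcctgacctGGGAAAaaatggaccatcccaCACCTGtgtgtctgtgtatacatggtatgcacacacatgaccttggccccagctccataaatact
Prss2 (chr6:41521626-41521775, plus strand): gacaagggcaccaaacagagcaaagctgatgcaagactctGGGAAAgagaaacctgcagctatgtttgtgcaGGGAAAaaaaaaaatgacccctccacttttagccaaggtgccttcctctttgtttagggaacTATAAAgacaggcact
Pnlip (chr19:58670215-58670364, plus strand): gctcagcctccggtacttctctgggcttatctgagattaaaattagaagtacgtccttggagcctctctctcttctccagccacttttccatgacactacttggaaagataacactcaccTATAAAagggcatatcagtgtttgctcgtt
Ctrb1 (chr8:111691011-111691160, minus strand): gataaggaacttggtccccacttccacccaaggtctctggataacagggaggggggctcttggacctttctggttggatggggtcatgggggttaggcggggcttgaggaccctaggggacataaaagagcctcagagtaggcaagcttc

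Over the full 250 bases before the start, the E-box was found in 6 of the 9 genes with a promoter sequence (Cpb1, Cel, Cela2a, Cela3b, Prss2 and Try4), and in 17.2% of all 32851 promoters. The TC-box was found in 5 of 9 (Cpa1, Cel, Cela2a, Ctrb1 and Prss2) and in 21.9% of all. Both occurred together in 3 of 9 (Cel, Cela2a and Prss2) and in 3.61% of all promoters. In Cel the closest pair lies 65 and 86 bases before the start. TATAAA was found in 3 of 9 (Prss2, Pnlip and Try4) and in 12.4% of all. These are matches of letters and not measured sites.

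All 10 enzymes were detected in tumor-derived cells, while almost no counts of them were found in spleen. Their summed level in CPM (counts scaled to a library total of 1000000) was 65.5 ± 43.8 in untreated tumor PMN-MDSC (SD, n = 4), 24.3 ± 10.0 in treated tumor PMN-MDSC (SD, n = 4), 13.5 ± 7.26 in untreated tumor M-MDSC (SD, n = 4), 12.3 ± 6.71 in treated tumor M-MDSC (SD, n = 3) and 8.35 ± 8.89 in bulk tumor (SD, n = 4). The untreated tumor PMN-MDSC libraries 1 to 4 held 67.3, 124, 51.2 and 19.4 CPM, and the treated ones 21.1, 23.2, 14.6 and 38.3 CPM. These groups overlapped, through untreated library 4. Untreated tumor M-MDSC held 8.25, 7.41, 23.02 and 15.1 CPM and treated tumor M-MDSC 7.16, 9.87 and 19.9 CPM, with or without treated library 2 in the same range. Bulk tumor held 6.08, 1.06, 4.95 and 21.3 CPM. Every untreated PMN-MDSC library but library 4 thus stood above every bulk library.

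In the 15 spleen libraries the 10 genes summed to 7 counts of 40736173. Of these, 4 fell in untreated spleen PMN-MDSC library 2 (1 for Cpa1, 1 for Cpb1 and 2 for Prss2), and the other 3 were 1 count of Prss2, 1 of Ctrb1 and 1 of Cel in 3 further libraries. Cela2a, Cela3b, Pnlip, Clps and Try4 had 0 counts in spleen, which allows a level of up to 0.0736 CPM each. The 8 tumor PMN-MDSC libraries summed to 775 counts of 19201558, and the 7 tumor M-MDSC libraries to 235 of 17145056. Since these are RNA measurements on pooled cells, how many cells held these transcripts and how much each held cannot be told apart. The source of the transcripts was not tested.

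**Figure D1:**
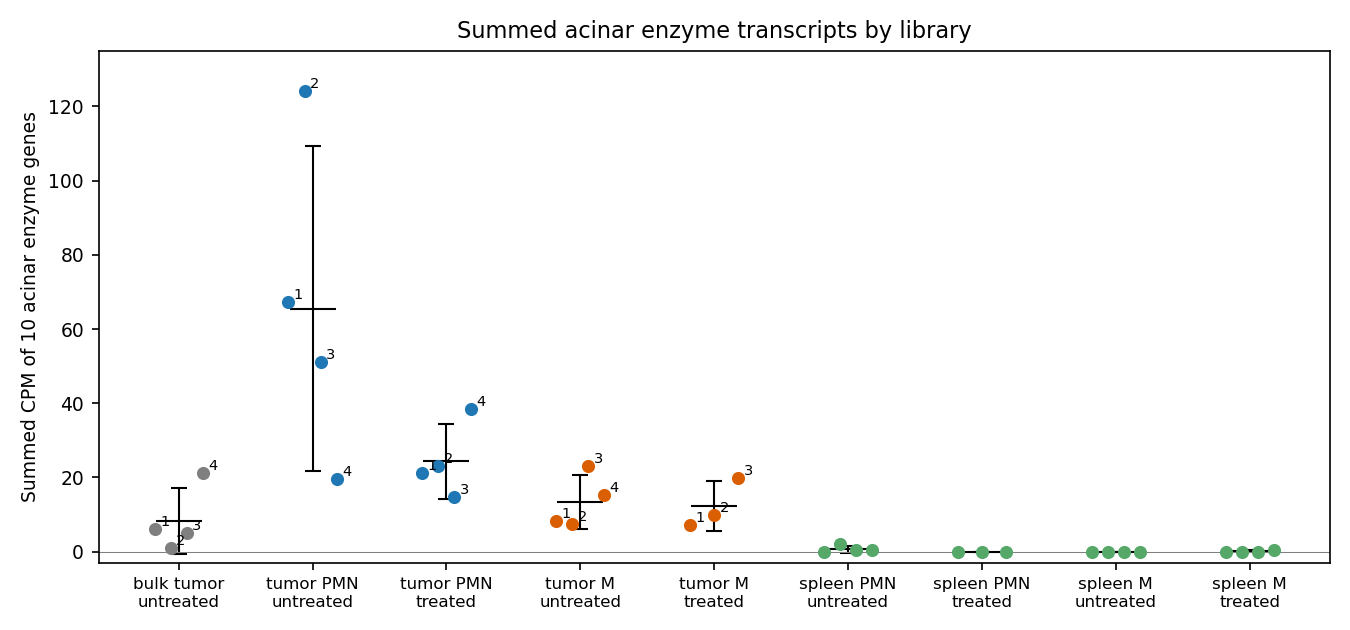
Summed level of the 10 acinar enzyme genes in each library, in CPM, by group, with points for libraries (numbered in the tumor groups) and lines for group means ± SD. Untreated tumor PMN-MDSC span 19.4 to 124 CPM and bulk tumor 1.06 to 21.3 CPM, while no spleen library passes 1.99 CPM.

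All 10 genes are protein-coding, and their positions are those of GENCODE M21 on GRCm38. Among the serine proteases, the chymotrypsinogen gene Ctrb1 (ENSMUSG00000031957.6, chr8:111686519-111691010) had the highest mean of the 10 in every tumor group, also per length of its transcript. It held 19.4, 25.5, 18.4 and 3.79 CPM in untreated tumor PMN-MDSC and 6.57, 5.80, 3.65 and 18.1 CPM in treated ones. In tumor M-MDSC it held 0.55, 3.37, 8.32 and 11.3 CPM without treatment and 1.69, 2.30 and 4.42 CPM with it. In bulk tumor it held 2.25, 0.265, 1.69 and 9.50 CPM. Tumor PMN-MDSC and bulk tumor overlapped for this gene, because bulk library 4 stood above PMN-MDSC library 4. Over pooled counts, untreated PMN-MDSC held 4.10 times the bulk level (95% interval 3.17 to 5.3, 133 against 116 counts), or 10.1 times without bulk library 4 (6.83 to 15.2), and all tumor PMN-MDSC held 475 times the spleen level (84.4 to 18853, 224 counts against 1).

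The trypsinogen genes Prss2 (ENSMUSG00000057163.3, chr6:41521787-41525079) and Try4 (ENSMUSG00000054106.7, chr6:41302269-41305532) encode precursors that, once active, switch on the other pancreatic zymogens. Prss2 held 4.25, 7.04, 7.19 and 3.32 CPM in untreated tumor PMN-MDSC and 0.548, 0.683, 0.912 and 6.03 CPM in treated ones. It was at 0.529, 0, 0.338 and 1.26 CPM in bulk tumor and was seen in only 1 of 4 untreated tumor M-MDSC libraries, library 3, at 1.94 CPM. In treated tumor M-MDSC Prss2 held 0, 0.689 and 1.47 CPM. All 4 untreated PMN-MDSC libraries were thus above all bulk and all untreated M-MDSC libraries for Prss2. Try4 held 1.21, 10.3, 1.20 and 0.948 CPM in untreated PMN-MDSC, with library 2 far above the other 3, and 0.821, 2.73, 0 and 1.29 CPM in treated ones. In tumor M-MDSC it held 1.10, 0.674, 1.11 and 0 CPM without treatment and 0.843, 0.918 and 0.737 CPM with it. Bulk tumor held 0.132, 0, 0.225 and 0.916 CPM of Try4, all under the lowest untreated PMN-MDSC library. Of the 50-base stretches of Try4 transcripts, 65.6% also occur in Try5, Try10, Prss1 or another gene, so its count could be split or shared between trypsinogens, whereas for Prss2 this share was 7.83%.

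The elastase genes encode precursors of enzymes that cut proteins. Cela2a (ENSMUSG00000058579.5, chr4:141814962-141826160) held 4.25, 8.67, 1.20 and 0.948 CPM in untreated tumor PMN-MDSC and 1.64, 3.75, 0.912 and 0.861 CPM in treated ones. Bulk tumor held 0.132, 0, 0.113 and 0.229 CPM, or 4 counts in all, and each untreated PMN-MDSC library stood above each bulk library. Untreated tumor M-MDSC held 1.10, 0, 1.39 and 0 CPM and treated ones 1.69, 0.23 and 1.47 CPM. Cela3b (ENSMUSG00000023433.8, chr4:137420999-137430540), which despite its name digests many proteins, had the lowest mean of the 10 per transcript length in tumor PMN-MDSC. It held 2.43, 2.17, 0.799 and 0.948 CPM in untreated PMN-MDSC, 0.274, 0.683, 0 and 1.72 CPM in treated ones, and 0, 0, 0.45 and 0.458 CPM in bulk tumor. In tumor M-MDSC it held 1.10, 0, 1.39 and 0 CPM without treatment and 0, 0.459 and 3.32 CPM with it. The pooled ratio of untreated tumor PMN-MDSC to M-MDSC was 1.63 for Cela3b (95% interval 0.591 to 4.88, 12 against 7 counts) and 3.03 without M-MDSC library 3 (0.675 to 27.9), intervals that include no difference. Of their 50-base stretches, 15.6% of those of Cela2a occur in another gene, mostly Ctrc, and 19.2% of those of Cela3b, mostly in Cela3a.

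The carboxypeptidases trim amino acids from the end of the peptides that the endoproteases leave. Cpa1 (ENSMUSG00000054446.8, chr6:30639218-30645363) held 7.28, 10.3, 9.59 and 1.90 CPM in untreated tumor PMN-MDSC and 3.01, 1.71, 3.65 and 3.88 CPM in treated ones. Bulk tumor held 0.397, 0.795, 0.113 and 1.14 CPM, so that every untreated PMN-MDSC library was above every bulk one, by 12.4 times over pooled counts (95% interval 7.13 to 22.7, 59 against 17 counts), or 21.03 times without bulk library 4 (9.59 to 54.6). Tumor M-MDSC held 1.65, 0, 2.22 and 0 CPM of Cpa1 without treatment and 0.843, 1.61 and 3.68 CPM with it. Cpb1 (ENSMUSG00000011463.5, chr3:20248264-20275733), specific for basic residues, differed from Cpa1 in bulk tumor, where it held 1.19, 0, 1.35 and 3.89 CPM. In untreated tumor PMN-MDSC it held 7.28, 15.2, 1.20 and 0.948 CPM, a range that overlapped with bulk tumor, and in treated ones 2.74, 1.71, 0.912 and 2.58 CPM. Tumor M-MDSC held 1.10, 0, 0.832 and 1.26 CPM without treatment and 0, 0.459 and 0.737 CPM with it. The pooled PMN-MDSC to bulk ratio of Cpb1 was 2.92 (95% interval 1.93 to 4.42, 45 against 55 counts), but 1.43 without PMN-MDSC library 2 (0.778 to 2.5) and 5.35 without bulk library 4 (3.12 to 9.45). For M-MDSC against bulk it was 0.41 (0.144 to 0.951, 6 against 55 counts), but without bulk library 4 it was 0.75 with an interval that includes 1 (0.248 to 1.92).

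The lipid enzymes made up the third set. Cel (ENSMUSG00000026818.5, chr2:28555795-28563403), the bile salt-stimulated lipase, held 15.8, 13.0, 8.79 and 3.79 CPM in untreated tumor PMN-MDSC and 3.01, 3.75, 4.11 and 3.45 CPM in treated ones. Tumor M-MDSC held 0.55, 2.02, 4.44 and 2.52 CPM without treatment and 1.26, 1.38 and 2.58 CPM with it, and bulk tumor 1.19, 0, 0.563 and 3.21 CPM. Cel was detected in all 15 sorted tumor libraries, and every untreated PMN-MDSC library stood above every bulk library. Pnlip (ENSMUSG00000046008.7, chr19:58652498-58681788), the main triglyceride lipase of pancreatic juice, held 2.43, 26.5, 1.60 and 1.42 CPM in untreated PMN-MDSC. Library 2 thus held 49 of the 60 counts of its group. Treated PMN-MDSC held 2.19, 1.71, 0.456 and 0 CPM of Pnlip, tumor M-MDSC 0.55, 1.35, 1.39 and 0 CPM without treatment and 0.843, 1.84 and 1.11 CPM with it, and bulk tumor 0.264, 0, 0.113 and 0.229 CPM. The pooled PMN-MDSC to bulk ratio of Pnlip was 42.9 (95% interval 17.4 to 137), and without library 2 it was 10.2 (3.26 to 37.4).

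Clps (ENSMUSG00000024225.4, chr17:28558149-28560766) encodes colipase, the cofactor that anchors pancreatic lipase to fat droplets in the presence of bile salts. It held 3.03, 5.42, 1.20 and 1.42 CPM in untreated tumor PMN-MDSC and 0.274, 0.683, 0 and 0.431 CPM in treated ones. It was the only one of the 10 for which all treated PMN-MDSC libraries were below all untreated ones. Tumor M-MDSC held 2 counts of Clps in 7 libraries, 0.55 CPM in untreated library 1 and 0.368 CPM in treated library 3. Bulk tumor held 4 counts, all in library 4, at 0.458 CPM.

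**Figure D2:**
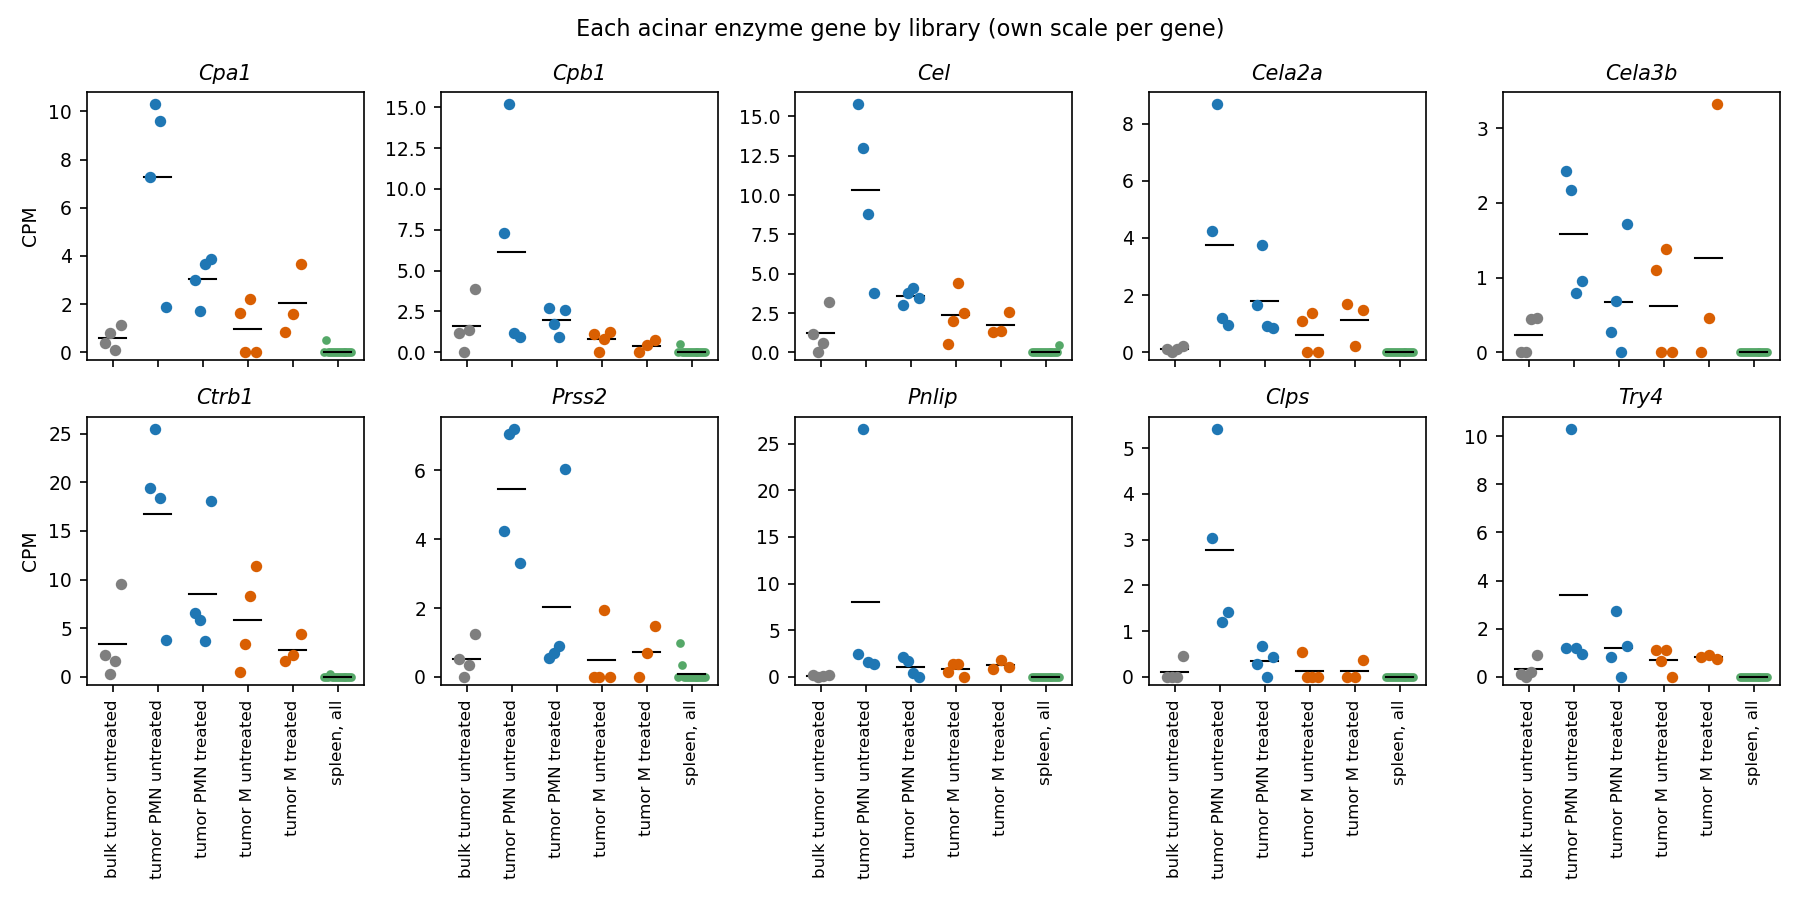
Level of each of the 10 genes in each library, in CPM, with a linear axis of its own per gene, points for libraries of the 5 tumor groups and of all 15 spleen libraries, and lines for means. Untreated tumor PMN-MDSC have the highest mean for each gene, and the point of Pnlip at 26.5 CPM is library 2 of that group.

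Levels were compared between genes per length, as FPKM (the CPM divided by the summed exon length in kilobases). In untreated tumor PMN-MDSC the order was Ctrb1 at 19.1 ± 10.5 FPKM (SD, n = 4), Prss2 at 6.69 ± 2.41, Cel at 4.91 ± 2.48, Clps at 4.53 ± 3.19, Try4 at 4.26 ± 5.73, Cpa1 at 4.15 ± 2.17, Pnlip at 3.64 ± 5.64, Cela2a at 2.19 ± 2.09, Cpb1 at 1.87 ± 2.04 and Cela3b at 0.952 ± 0.499 FPKM. Only the step from Ctrb1 to Prss2 was larger than the SD of both neighbours. From Prss2 to Cela3b each neighbouring pair differed by less than the larger SD of the pair.

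Shares of single enzymes in the acinar message were compared between bulk tumor and sorted cells. Ctrb1 was 41.4% of the summed counts of the 10 genes in bulk tumor (exact 95% binomial interval 35.6 to 47.4%, 280 counts), 26.1% in untreated tumor PMN-MDSC (22.4 to 30.2%, 509 counts) and 37.2% in untreated tumor M-MDSC (28.6 to 46.4%, 121 counts). Cpb1 was 19.6% in bulk tumor (15.2 to 24.8%), 8.84% in untreated PMN-MDSC (6.52 to 11.7%) and 4.96% in untreated M-MDSC (1.84 to 10.5%). Pnlip went the other way, at 1.79% in bulk tumor (0.582 to 4.12%) and 11.8% in untreated PMN-MDSC (9.12 to 14.9%). Cel held 15% and 15.7% in the same groups. Single libraries weigh on these pooled shares, bulk library 4 with 186 of 280 counts and untreated PMN-MDSC library 2 with 229 of 509. Without PMN-MDSC library 2 the share of Pnlip in that group was 3.93% (1.98 to 6.92%), which overlaps the interval of bulk tumor, that of Cel was 20% (15.5 to 25.2%) and that of Ctrb1 30.7% (25.4 to 36.5%). Without bulk library 4 the share of Ctrb1 in bulk tumor was 35.1% (25.5 to 45.6%), an interval that includes both values of PMN-MDSC. The pooled share of Cpb1 was 22.3% in bulk tumor without library 4 (14.4 to 32.1%) and 6.07% in PMN-MDSC without library 2 (3.58 to 9.54%). All these intervals leave out the spread between libraries, and the shares were not tested.

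**Figure D3:**
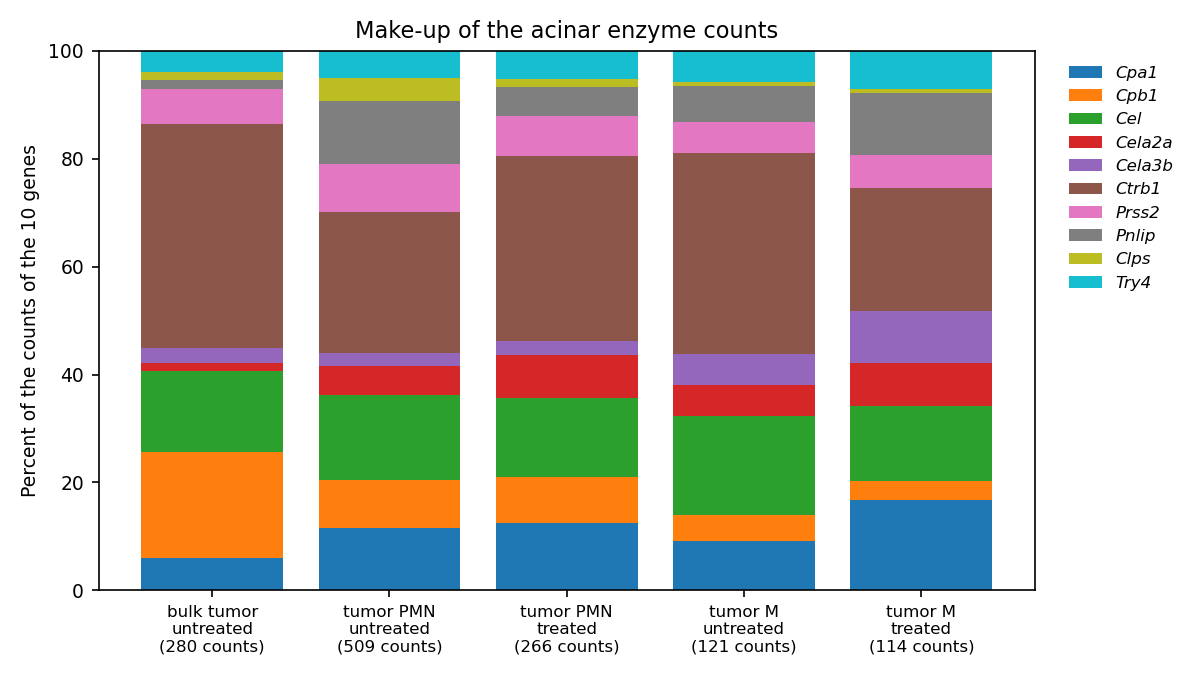
Stacked bars of the share of each of the 10 genes in their summed counts, in percent, pooled over the libraries of each tumor group. Cpb1 fills 19.6% of the bar of bulk tumor and 8.84% of that of untreated tumor PMN-MDSC, and Pnlip 1.79% and 11.8%.

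Some libraries were high or low for most of the 10 genes. Untreated tumor PMN-MDSC library 2 was the highest of its group for 7 of 10 genes, and library 4 the lowest for 8. Without library 2 the summed level of the untreated group was 45.97 CPM in place of 65.5. In bulk tumor, library 4 was highest for 9 of 10, and library 2, with the smallest total of the group, held a count for only 2 genes. Without bulk library 4 the bulk mean was 4.03 CPM in place of 8.35.

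Counts of non-overlapping genes were set against all genes with a count, which serve as background and not as a test, since the rule used these contrasts. All 10 genes were higher in every untreated tumor PMN-MDSC library than in every spleen PMN-MDSC library, as were 13.5% of all genes. After treatment this held for 6 of 10 (Ctrb1, Prss2, Cela2a, Cpa1, Cpb1 and Cel), against 22.4% of all genes. In M-MDSC it held for 2 of 10 without treatment (Ctrb1 and Cel, against 4.93% of all genes) and 6 of 10 with it (Ctrb1, Try4, Cela2a, Cpa1, Cel and Pnlip, against 6.67%). Bulk tumor was below every untreated tumor PMN-MDSC library for 8 of 10, all but Ctrb1 and Cpb1, against 12.5% of all genes. Against untreated tumor M-MDSC, 0 of 10 were separated in either direction, where 11.6% of all genes were below and 24.8% above in bulk tumor. Untreated PMN-MDSC were above untreated M-MDSC for Prss2, Pnlip and Clps, 3 of 10, against 5.23% of all genes, and treated PMN-MDSC above treated M-MDSC for Cpb1 and Cel, 2 of 10, against 3.88%. Without treated tumor M-MDSC library 2, these counts for treated M-MDSC were again 6 against spleen and 2 against PMN-MDSC, and the summed level of the group was 13.5 CPM in place of 12.3.

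Epithelial and fibroblast transcripts stood far lower in the sorted cells than in bulk tumor, unlike the acinar enzymes, whereas islet and endothelial transcripts overlapped with bulk tumor. As a percentage of the bulk tumor mean, the 10 genes stood at 538% ± 440 in tumor PMN-MDSC (SD, n = 8; 175 to 1487%) and 155% ± 77.4 in tumor M-MDSC (SD, n = 7; 85.8 to 276%). The cytokeratins Krt8 and Krt18, expressed by duct and tumor epithelium, stood at 3.96% ± 3.47 (1.17 to 11.6%) and 1.74% ± 1.22 (0.257 to 4.23%) of bulk when summed. A list of 10 duct and tumor epithelial markers stood at 4.84% ± 4.53 in tumor PMN-MDSC and 2.61% ± 1.69 in tumor M-MDSC. For 6 fibroblast markers the values were 5.73% ± 4.46 and 3.26% ± 2.96. For 9 islet markers, hormone and other secretory genes of endocrine cells, they were 5.04% ± 3.80 and 1.04% ± 1.79. Single bulk libraries ran from 4.19 to 260% of their own mean for the islet list. The highest sorted tumor library of these 3 lists stood at 14.5% of bulk, for the epithelial list, and the lowest for the acinar enzymes at 85.8%. Endothelial markers stood at 89.0% ± 25.5 in tumor PMN-MDSC and 92.9% ± 69.0 in tumor M-MDSC, with libraries up to 208% of bulk, the highest being treated tumor M-MDSC library 2. This list was as high in spleen, at 92.1% ± 108 of bulk tumor (SD, n = 15) and 246% ± 102 in treated spleen M-MDSC (SD, n = 4). It is thus not particular to the tumor fractions. Lymphocyte markers stood at 24.6% ± 14.4 and 42.3% ± 24.3, and erythroid markers ran from 0 to 66.4% and from 0 to 77.1%. The bulk means of the acinar enzymes and of the islet markers rest largely on bulk library 4. Against the other 3 bulk libraries the 10 genes stood at 1114% ± 912 in tumor PMN-MDSC and 322% ± 160 in tumor M-MDSC, and the islet markers at 10.8% ± 8.12 and 2.22% ± 3.84, with a highest library of 27.4%. Without treated tumor M-MDSC library 2 the tumor M-MDSC values were 162% ± 82.9 for the 10 genes, 73.7% ± 51.2 for the endothelial list, with a highest library of 166%, and 36.8% ± 21.4 for the lymphocyte list, and the epithelial, fibroblast and islet lists stood at 2.73, 3.54 and 1.21%. The source of the acinar transcripts in the sorted fractions was not tested.

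**Figure D4:**
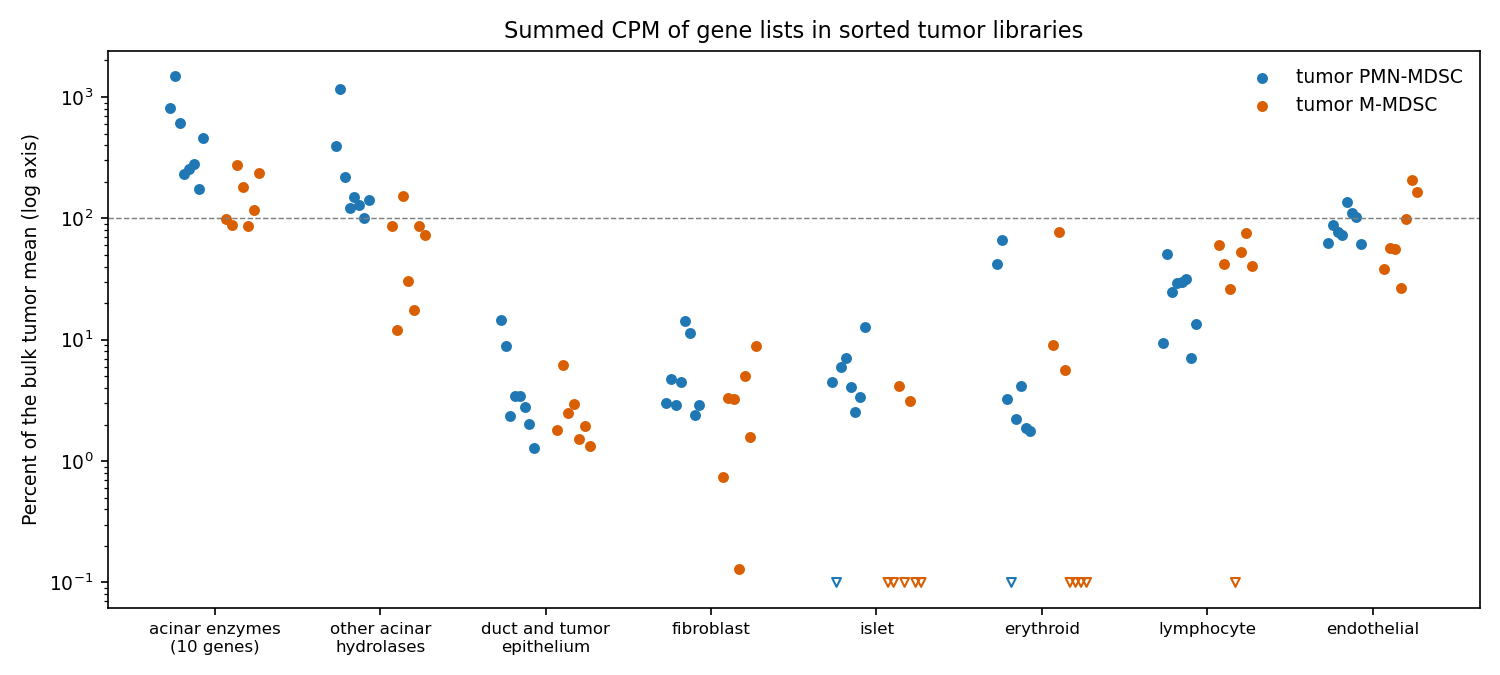
Summed level in each sorted tumor library as a percentage of the bulk tumor mean, on a log axis, for the 10 acinar enzymes, the other acinar hydrolases and the epithelial, fibroblast, islet, erythroid, lymphocyte and endothelial marker lists (dashed line at 100%, open triangles for libraries at 0). Tumor PMN-MDSC span 175 to 1487% for the acinar enzymes, the epithelial list stays at or under 14.5% in every library, and the endothelial list reaches 208%. The remaining acinar lists are not drawn.

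Other genes of the acinar cell, 46 in 4 groups, were measured beside the 10. The lipid, starch and RNA hydrolases summed to 79.4 ± 79.0 CPM in untreated tumor PMN-MDSC (SD, n = 4), 16.7 ± 13.6 CPM in bulk tumor (SD, n = 4) and 0.162 ± 0.358 CPM in spleen (SD, n = 15), and unlike the 10 genes their mean in tumor M-MDSC, 10.9 ± 8.33 CPM (SD, n = 7), was under that of bulk tumor, with overlap. Pnliprp1, a lipase-related protein, held 10.3, 13.5, 9.59 and 8.06 CPM in untreated tumor PMN-MDSC, 2.11, 0.265, 1.35 and 5.61 CPM in bulk tumor, and 0 counts in spleen. Amy2a5, a pancreatic amylase, held 46.7, 116, 12.8 and 9.48 CPM in untreated PMN-MDSC, again with library 2 highest, and 10.6, 0, 6.19 and 14.5 CPM in bulk tumor. Amy2b, an amylase copy annotated as a pseudogene, overlapped between the groups, at 3.44, 0, 3.04 and 12.5 CPM in bulk tumor and 2.43, 5.96, 2.40 and 1.42 CPM in untreated PMN-MDSC. Amylase counts could be shared, since 53.5% of the 50-base stretches of Amy2a5 occur in Amy2a2, Amy2a3 or Amy2a4.

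The other proteases summed to 7.89 ± 1.15 CPM in bulk tumor (SD, n = 4), 17.2 ± 11.2 CPM in tumor PMN-MDSC (SD, n = 8) and 5.51 ± 4.48 CPM in tumor M-MDSC (SD, n = 7). Among them, Try5, a trypsinogen, held 1.82, 7.59, 6.79 and 0 CPM in untreated tumor PMN-MDSC and 0.925, 0.265, 0.788 and 2.52 CPM in bulk tumor. Ctrl, chymotrypsin-like, held 0.607, 9.75, 0.799 and 0.474 CPM in untreated PMN-MDSC and 0.397 to 0.795 CPM in bulk tumor, and unlike the 10 it had counts in 8 of 15 spleen libraries. Cela1, an elastase that is also expressed outside the pancreas, overlapped between bulk tumor (2.75 to 6.98 CPM) and untreated PMN-MDSC (2.80 to 8.67 CPM), and had counts in 10 of 15 spleen libraries. The secreted proteins Reg3b and Reg1, induced in injured acinar cells, held 1.42 to 8.67 and 0.948 to 4.25 CPM in untreated PMN-MDSC, and 0.795 to 2.98 and 0 to 2.40 CPM in bulk tumor.

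Unlike the 10 genes, the remaining lists had lower means in sorted tumor cells than in bulk tumor. Granule and accessory proteins summed to 2032 ± 563 CPM in bulk tumor (SD, n = 4), 98.2 ± 117 CPM in tumor PMN-MDSC (SD, n = 8) and 37.5 ± 37.9 CPM in tumor M-MDSC (SD, n = 7). Transcription factors and receptors summed to 27.1 ± 8.20, 13.8 ± 5.73 and 2.27 ± 1.85 CPM in the same groups. The remaining named genes were a secreted protein and transcription factors. Dmbt1, a mucin-like secreted protein also made by ducts, held 1500 to 2825 CPM in bulk tumor and 28.5 to 320 CPM in untreated tumor PMN-MDSC. Gata4, a transcription factor of the pancreas and other organs, held 16.97 to 34.9 CPM in bulk tumor and 5.46, 5.42, 0 and 0 CPM in untreated PMN-MDSC. Nr5a2, a transcription factor that sustains acinar identity, held 0.338 to 1.06 CPM in bulk tumor and 0 in the 8 untreated sorted tumor libraries, and Rbpjl, a subunit of PTF1, held 0.132 to 0.687 CPM in bulk tumor and 0 to 1.21 CPM in untreated PMN-MDSC, which overlapped at 10 and 3 counts.

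With edgeR's quasi-likelihood test (adjusted p under 0.001 and at least 2-fold), few of these 46 genes passed the filter on low counts. Some passed only through the group in which they are high, as Dmbt1 and Chrm3 did between tumor and spleen PMN-MDSC and Gata4 between bulk tumor and M-MDSC, so the counts that follow describe these genes and lend no support to a difference of the group. Between untreated tumor and spleen PMN-MDSC, 2 of 3 tested were called, Dmbt1 higher and Chrm3, a muscarinic receptor, lower in tumor, against 21.7% of all genes tested. The count for treated PMN-MDSC was 1 of 2 (Dmbt1, against 13%), for untreated M-MDSC 0 of 1 (against 8.6%) and for treated M-MDSC 0 of 0 (against 0.188%). Bulk tumor against untreated tumor PMN-MDSC gave 0 of 3 (against 40.1%) and against untreated tumor M-MDSC 2 of 3, Gata4 and Dmbt1, both higher in bulk (against 41.9%). Tumor PMN-MDSC against tumor M-MDSC gave 0 of 2 without treatment (against 1.65%) and 0 of 1 with it (against 0% of all genes). Bulk tumor and sorted cells also differ in dissociation and sorting, which cannot be told apart from the fraction.

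Across the 15 sorted tumor libraries, the summed level of the 10 genes ran with that of the other hydrolases (Spearman rho 0.90) and of the other proteases (rho 0.77) and with the acinar granule and accessory proteins (rho 0.61). The Spearman correlation was 0.56 for the acinar transcription factors and receptors, a list that holds Chrm3 and stood at 33.4 CPM in untreated spleen PMN-MDSC and 27.1 CPM in bulk tumor. The PMN-MDSC markers gave a value as high (rho 0.55), followed by the islet (rho 0.44), epithelial (rho 0.34), erythroid (rho 0.33) and fibroblast (rho 0.21) markers. Within the 8 PMN-MDSC libraries rho was 0.93 for the other hydrolases, 0.88 for the other proteases, 0.76 for the erythroid, 0.45 for the epithelial and M-MDSC, 0.12 for the fibroblast and -0.12 for the PMN-MDSC markers. Granule and accessory proteins stood at 0.90 there and the transcription factors and receptors at 0.05. Within the 7 M-MDSC libraries it was 0.68 for the other hydrolases, 0.32 for the other proteases and M-MDSC markers, 0.21 for the granule and accessory proteins, -0.21 for the transcription factors and receptors, 0 for the epithelial and -0.11 for the fibroblast markers. There rho was also -0.57 for the lymphocyte markers (-0.40 over all 15 libraries) and -0.32 for the PMN-MDSC markers. Without treated M-MDSC library 2 it was 0.77 for the other hydrolases and 0.43 for the other proteases in M-MDSC, and 0.91 and 0.86 over all sorted tumor libraries. They are descriptions over libraries that share the depth and RNA of each list. Among 8358 genes outside all lists with a mean of at least 25 counts, the 10 with the closest pattern were 4932438A13Rik (rho 0.85), Fzd5 (rho 0.80), Ss18, Gbe1, Gm37560, Atxn10, Syne2, Gm37498, Ncoa4 and Plscr1 (rho 0.75 to 0.78). The listed acinar genes had been left out of this ranking, so their absence from it is by design. Of these 10 similar genes, 9 had a mean in spleen above 2 CPM, unlike the acinar enzymes followed here, and Gm37560 held 0.657 CPM.

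Treatment with poly(I:C) was the comparison that the choice of genes had not used. In tumor PMN-MDSC all 10 enzymes had lower fitted levels after treatment, but none passed the threshold. Under the study's filter of a mean of at least 25 counts, only Ctrb1 could be tested, with a log2 fold change of -0.97 (SE 0.60) and an adjusted p of 0.44 by edgeR, where 0.241% of 8308 genes were called. Ctrb1 passed through the untreated libraries (133 counts in 4), since the treated ones alone were under that mean (91 counts in 4). The other 9 genes did not pass this filter, so a fit without it is given for all 10. It called 0 of 10 at an adjusted p under 0.001, where 1.06% of 29685 genes were called, and 1 of 10, Pnlip, at an adjusted p under 0.05 (1.95% of all genes). At an unadjusted p under 0.05 there were 7 of 10, against 10.9% of all genes, while DESeq2 called 0 and had 3 at an unadjusted p under 0.05. DESeq2 gave no adjusted p for Pnlip (log2 fold change -2.91), so it could not call that gene. A fit over all 9 groups, also without the filter, called 0 at an adjusted p under 0.05, with Pnlip at 0.147, and had 3 of 10 at an unadjusted p under 0.05. The log2 fold change was under 0 for 10 of 10, against 53.2% of all genes, with a median of -1.41 against -0.07 over all genes. Untreated library 2 was the highest of its group for 7 of the 10 genes and library 4 the lowest for 8. The 10 genes thus moved together by library, and their counts by direction or p are not those of independent genes.

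Among the lipid enzymes the log2 fold changes in tumor PMN-MDSC, from edgeR without the filter, were -2.71 for Pnlip (SE 0.62, adjusted p 0.00128), -2.76 for Clps (SE 1.01, adjusted p 0.145) and -1.49 for Cel (SE 0.47, adjusted p 0.0501). Without untreated library 2, Pnlip stood at -0.62 with an adjusted p of 0.774. The carboxypeptidases stood at -1.53 for Cpb1 (SE 0.60, adjusted p 0.215) and -1.23 for Cpa1 (SE 0.53, adjusted p 0.308). The proteases stood between -0.93 for Ctrb1 and -1.41 for Prss2 and Try4, with adjusted p-values of 0.172 to 0.601 by edgeR. Clps was the only 1 of the 10 whose treated libraries were all below the untreated ones, against 2% of all genes with a count.

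These values rest in part on single libraries. Without untreated tumor PMN-MDSC library 2, 9 of 10 were lower, the median was -0.78, 1 of 10 had an unadjusted p under 0.05, the lowest adjusted p by edgeR was 0.229, and Try4 turned to 0.15. Without treated library 4, the lowest adjusted p by edgeR was 0.00134, for Ctrb1. Markers of other cells differed in mean between the groups as well, with no test. The epithelial list held 432 ± 331 CPM in untreated and 142 ± 55.9 CPM in treated tumor PMN-MDSC (SD, n = 4), 7 M-MDSC markers held 4508 to 8760 CPM in untreated and 1451 to 3176 CPM in treated ones, and 7 PMN-MDSC markers 994 to 3179 and 2851 to 9016 CPM. In the same groups fibroblast markers held 36.7 ± 9.24 and 74.7 ± 57.7 CPM, endothelial markers 47.9 to 66.6 and 46.9 to 102 CPM, and erythroid markers 6.84 ± 7.83 and 0.615 ± 0.277 CPM. Their part in the lower acinar values was not tested.

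In tumor M-MDSC no acinar enzyme passed the study's filter, and 0.012% of 8360 genes were called. Without the filter, edgeR called 0 of 10 at an adjusted p under 0.001 (1.73% of 25966 genes) and 0 of 10 at an adjusted p under 0.05 (3.35%). There were 0 of 10 at an unadjusted p under 0.05, against 11.6% of all genes, and DESeq2 also had 0 by each rule. Of the 10, 6 had a log2 fold change under 0, against 41.5% of all genes, and the median was -0.05 against 0.21 over all genes. When each library was left out the count under 0 was 3 to 6 and the median -0.85 to 0.50. The values ran from -1.09 for Ctrb1 (SE 0.68, adjusted p 0.587 by edgeR, the lowest of the 10) to 0.64 for Cpa1 (SE 0.95). No gene was separated between treated and untreated libraries, where 3.02% of all genes were below and 7.22% above. The sum of the 10 genes was 11 to 83 counts per library here, and the SE ran from 0.68 to 1.76 on the log2 scale, against 0.35 to 1.06 in tumor PMN-MDSC. Marker lists differed between these groups as well, with no test. M-MDSC markers held 9211 to 12489 CPM in untreated and 2957 to 5140 CPM in treated tumor M-MDSC. Endothelial markers held 20.2 to 43.1 and 74.6 to 158 CPM, and the other marker lists overlapped. Without treated library 2 the lowest adjusted p by edgeR was 0.657. The difference between the effects in PMN-MDSC and M-MDSC was not tested.

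**Figure D5:**
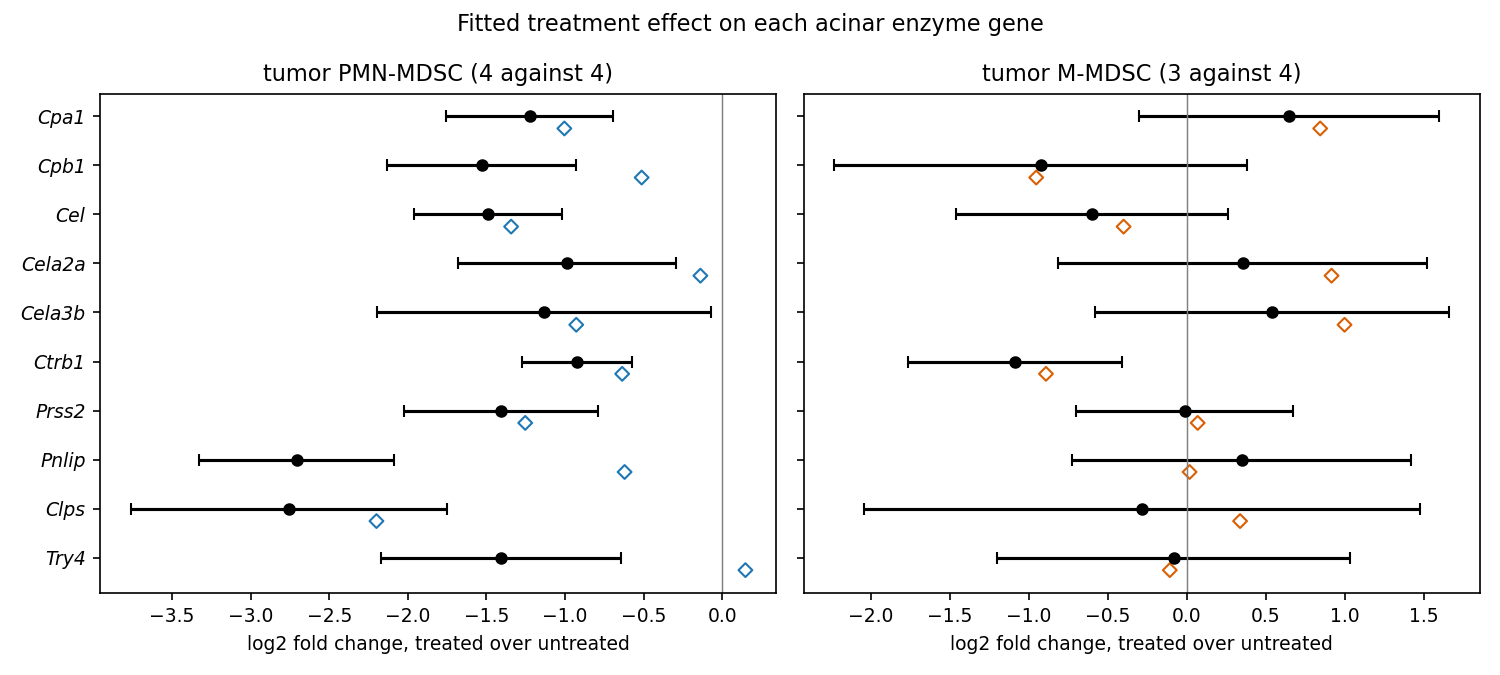
Log2 fold change of treated against untreated for each of the 10 genes in tumor PMN-MDSC (left) and tumor M-MDSC (right), as black points ± SE from the fit without a filter on low counts, with open diamonds for the fit without untreated PMN-MDSC library 2 (left) or treated M-MDSC library 2 (right). All 10 points are under 0 on the left, and Pnlip moves from -2.71 to -0.62.

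Most other acinar genes also had lower fitted levels in treated tumor PMN-MDSC, and none passed the threshold. Of 3 that passed the filter, 0 were called by edgeR and 3 had an unadjusted p under 0.05, with 0 called by DESeq2. Dmbt1 stood at -2.54 (SE 0.81, adjusted p 0.153), Amy2a5 at -2.35 (SE 0.83, adjusted p 0.181) and Chrm3, in the other direction, at 1.10 (SE 0.48, adjusted p 0.256). Without the filter, 31 of 40 had a log2 fold change under 0, with a median of -1.60, 0 were called and 10 had an unadjusted p under 0.05, against 53.2, 1.06 and 10.9% of all genes under 0, called and at an unadjusted p under 0.05. Without untreated library 2 there were 26 of 38 under 0, with a median of -0.89 and 5 at an unadjusted p under 0.05. Other genes whose levels are given above and whose value was over 0 in that fit were Cela1 at 0.36 (SE 0.50, adjusted p 0.722) and Nr5a2 at 2.82 (SE 1.84, adjusted p 0.528). In tumor M-MDSC 24 of 36 were under 0 without the filter, with a median of -0.27, 0 called and 2 at an unadjusted p under 0.05, against 41.5, 1.73 and 11.6% of all genes. The direction rests on single libraries, with 9 of 33 under 0 and a median of 1.46 without untreated library 3, 17 of 36 and 0.0952 without treated library 1, and 21 of 33 and -0.65 without treated library 2. Dmbt1 was called without untreated library 1, which held 2 of its counts, at -2.38 (SE 0.36, adjusted p 1.69e-08 by edgeR), against -1.96 (SE 1.29, adjusted p 0.605) with it.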

How the data were processed

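RNA-seq libraries of rRNA-depleted total RNA (SMARTer Stranded Pico v2) were mapped by the authors to mm10 with ContextMap using BWA, and fragments per gene were counted by strand with featureCounts of Subread (version 1.4.6-p3, per the submitters' processing notes) on Gencode v16. The authors deposited raw counts, 1 column per library, without normalization. Here CPM was computed on library totals and FPKM on summed exon lengths of GENCODE M21, which matched 53274 of 53379 identifiers. Of 35 libraries, 1 of treated tumor M-MDSC with 10 counts was left out. Among 48 within-group pairs, 0 were identical, and a chi-square comparison gave 6.19 to 49.5 per degree of freedom. The labels number 8 mice, so libraries of a group come from separate mice.

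Each comparison used edgeR 4.0.16 in R 4.3.3 (TMM, robust quasi-likelihood F-test, two-sided, mean count of 25 or more over the libraries compared, Benjamini-Hochberg adjustment over all genes tested, adjusted p under 0.001 and at least 2-fold). The scripts were tested on simulated counts. Alternatives were DESeq2 1.42.0, RLE scaling, no filter (at least 1 count), an adjusted p under 0.05, 1 fit over 9 groups, and each library left out. The fit without a filter was planned as an alternative and is printed for the acinar enzymes because 9 of them failed the filter. Its own alternatives, and the ratios, shares, percentages and correlations without single libraries, were added after seeing the data. Pooled ratios and shares have exact 95% intervals. A ratio against 0 counts would be a lower bound at 3 counts.

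All 10 acinar enzymes are named. Of the other acinar genes, the 3 with the highest mean CPM in bulk tumor in each of 4 groups are named, and any called for treatment; Chrm3 was named after its values were seen, and so was Amy2a2. The 10 most similar genes were those with the highest Spearman rho. Genes, lists and tests were chosen with earlier results of these data known. A promoter sequence was matched for 9 of 10 genes in RefSeq. Genome sequence and reads were not used here. The full genotype of the tumor line is not reported here.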

Additional observations from a re-analysis of the deposited data

Results flagged for a closer look

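In groups of 4 libraries, a highest or lowest library was marked when its gap to the next one exceeded 0.829 of the range of the group. Of 91 groups tested, 15 were marked. Chance marks about 1 in 20 for independent, normally distributed values, and low counts of related genes in shared libraries need not follow that rate. In 8 of the 15 the other libraries of the group were at 0 counts, where that rate does not apply.

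Among the acinar enzymes, untreated tumor PMN-MDSC library 2 stood apart for Pnlip (26.5 CPM, the others 1.42 to 2.43) and for Try4 (10.3 CPM, the others 0.948 to 1.21). Treated tumor PMN-MDSC library 4 stood apart for Prss2 (6.03 CPM, the others 0.548 to 0.912). Untreated tumor M-MDSC library 3 was the only one of its group with Prss2 (1.94 CPM, 7 counts). Bulk tumor library 4 was the only one with Clps (0.458 CPM, 4 counts). In spleen, the summed level was 1.99 CPM in untreated PMN-MDSC library 2, from 4 counts, against at most 0.339 CPM in the others.

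Among the other acinar genes, Ctrl stood apart in untreated tumor PMN-MDSC library 2 (9.75 CPM), in treated spleen M-MDSC library 2 (2.33 CPM) and in untreated spleen PMN-MDSC library 4 (0.963 CPM, 3 counts). Dmbt1 was seen in 1 library each of treated spleen M-MDSC (library 3, 6.75 CPM), untreated spleen M-MDSC (library 3, 1.66 CPM) and untreated spleen PMN-MDSC (library 2, 1.49 CPM). Untreated tumor M-MDSC library 3, marked for Prss2, was also apart for Reg3b (3.88 CPM) and Reg1 (4.44 CPM), and library 2 of that group for Gata4 (4.72 CPM).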

How the results depend on the processing

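No paired analysis was possible because treated and untreated libraries come from different mice and, for the other comparisons, the column names give a running number but no mouse number. The running numbers follow the order of the labels, and that order was not used to assign mice. TMM scaling moved the levels in the tumor groups by less than 1 SD. A median, or a mean without 1 library, cannot move past 1 SD, and single libraries did move levels, the summed level in untreated tumor PMN-MDSC from 65.5 to 45.97 CPM without library 2 and the summed level in bulk tumor from 8.35 to 4.03 CPM without library 4. For treatment in tumor PMN-MDSC, 118 of 122 alternative values of the 10 enzymes kept direction and call, and in tumor M-MDSC 86 of 100. With treatment in tumor PMN-MDSC, the count of enzymes called was 0, but 1 (Pnlip) without a filter at an adjusted p under 0.05, and 0 to 1 without a filter when each library was left out. That count was 1 without untreated library 1, 3 or 4, where Pnlip stood at -3.00 to -3.03, and 0 without library 2. Try4 turned to 0.15 there. The unfiltered fit over 9 groups also called 0. At an adjusted p under 0.05 the unfiltered count by edgeR was 0 to 3 when each library was left out, and 2 with RLE scaling. In tumor M-MDSC, leaving out a library turned the log2 fold change of Cela3b to -1.40, Cel to 0.0871, Cela2a to -0.019, Clps to 0.0833, 0.34 and 1.69, Try4 to 0.0384, 0.0867 and 0.22, and Prss2 to 0.0673, 0.50 and 3.81. DESeq2 turned Prss2 to 0.26 and RLE scaling to 0.0042. None of these was near a call, and the cause was not tested. The counts of other acinar genes called depended on the filter. Without it they were 11 in place of 2 for tumor against spleen in untreated PMN-MDSC, 4 in place of 1 in treated PMN-MDSC, 3 in place of 0 in untreated M-MDSC, 4 in place of 0 in treated M-MDSC, 7 in place of 0 for bulk tumor against PMN-MDSC, and 2 and 1 in place of 0 for PMN-MDSC against M-MDSC without and with treatment. The 11 were of 39 tested, where 3594 of 30908 genes were called, and the 3 of 31, where 1483 of 24414 were. These counts show the effect of the filter and are not a result about acinar genes. At an adjusted p under 0.05 there were 1 for tumor against spleen in untreated M-MDSC and 3 for bulk tumor against PMN-MDSC. DESeq2 gave 1 for each of these and 1 in place of 2 for bulk tumor against M-MDSC. The fit over 9 groups gave 1, 2 and, for treated PMN-MDSC, 0. For tumor against spleen in untreated PMN-MDSC, DESeq2, the fit over 9 groups and an adjusted p under 0.05 each gave 3 in place of 2. Leaving out 1 library gave 0 to 2 for tumor against spleen in untreated PMN-MDSC (0 without tumor library 2 or spleen library 4), 0 to 1 in treated PMN-MDSC, and 0 to 2 for bulk tumor against M-MDSC (0 without M-MDSC library 3 or 4). Depth limits all of this, since a library holds 3 counts for a level of 0.338 to 3.78 CPM.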

Other observations

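Amy2a2, an amylase copy, held 0, 0, 0 and 0.114 CPM in bulk tumor but 1.82, 47.1, 4.396 and 0.474 CPM in untreated tumor PMN-MDSC and 2.05 to 6.39 CPM in treated ones, while Amy2b was higher in bulk tumor in 3 of 4 libraries than in any treated PMN-MDSC library. Every 50-base stretch of Amy2a2 (100%) also occurs in another amylase gene, so its count cannot be told apart from theirs, and the difference was not tested. Ptf1a, the partner of Rbpjl in PTF1, and Pdia2, an acinar folding enzyme, had 0 counts in all 34 libraries.

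Erythroid markers held 3.73 ± 6.11 CPM in tumor PMN-MDSC (SD, n = 8) and 41.1 ± 50.1 CPM in spleen (SD, n = 15). Lymphocyte markers were at 1.58 ± 0.922 and 18.8 ± 17.7 CPM, and endothelial markers at 67.5 ± 19.3 and 69.9 ± 82.0 CPM in the same groups.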
